A study of Mus musculus with 2 samples.

Results

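The 10 genes described here encode both cyclins E (Ccne1 and Ccne2), the origin licensing factors Cdc6 and Cdt1, and the MCM helicase subunits Mcm2 to Mcm7. Peaks were taken when they lay inside one of these genes or within 5 kb of it, in GRCm38 RefSeq coordinates. The rule found 8 of the 12333 peaks in the ALKBH5-FLAG list and 2 of the 3378 peaks in the IgG list. The 10 genes are a part of 21887 protein-coding genes.

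The series asked whether ALKBH5, an RNA demethylase that acts on N6-methyladenosine, occupies DNA. It holds 2 CUT&Tag libraries from Hepa1-6, a mouse hepatoma line, with 1 library per group. CUT&Tag uses an antibody to bring the transposase Tn5 to chromatin, so that DNA near the antibody is cut, tagged and sequenced. The ALKBH5-FLAG library came from cells infected overnight with the ad-FLAG-ALKBH5 adenovirus, and the IgG library gives the background of a non-specific antibody. For the IgG sample the protocol names the same virus, while its treatment tag names ALKBH6-FLAG. Both samples are labelled Hepa1-6, although the series text speaks of primary hepatocytes. ALKBH5 was thus a tagged protein delivered by a virus, without an uninfected library among those analysed here. No RNA was measured. Of 8 hepatocyte and hepatoma genes, Foxa2 and Foxa3 had an ALKBH5-FLAG peak within 1 kb of a gene end (25%, near the 31.1% of all protein-coding genes), and Alb, Afp, Apoa1, Apob, Ttr and Hnf4a had none. Of 7 markers of other liver cells, the stellate and fibroblast gene Col1a1 had 2 such peaks, and Des, Pdgfrb, Pecam1, Kdr, Ptprc and Adgre1 had none. IgG had no gene-end peak at any of the 15, which with so few genes is near the 6.55% of all protein-coding genes. Inside or within 5 kb, IgG had 1 peak, at Foxa3. There was 1 library per group, so the values describe these libraries, and no difference between them could be set against replicate error.

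Replication origins are licensed in G1 phase, when the origin recognition complex, with Cdc6 and Cdt1, loads the ring of Mcm2 to Mcm7 onto DNA. Cyclin E, bound to Cdk2, then drives entry into S phase. Many of these genes are known targets of the E2F transcription factors, which the retinoblastoma family restrains, and their transcription is coupled to cell division.

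The DNA before the transcription start is shown for 6 genes, because the peaks at genes with a RefSeq start lay around it, with summits on either side. RefSeq promoter windows of GRCm38.p6 were matched for 8 of the 10 genes, and not for Ccne2 or Mcm4. Each line gives the 250 bases before the start, 5′ to 3′ in the direction of the gene. Capitals mark the E2F letters TTTGGCG or TTTCCCG and the NF-Y letters CCAAT, on either strand. The first 4 genes had an ALKBH5-FLAG peak at the start, and Mcm2 and Mcm5 had none.
Ccne1, chr7:38107491-38107740, minus strand: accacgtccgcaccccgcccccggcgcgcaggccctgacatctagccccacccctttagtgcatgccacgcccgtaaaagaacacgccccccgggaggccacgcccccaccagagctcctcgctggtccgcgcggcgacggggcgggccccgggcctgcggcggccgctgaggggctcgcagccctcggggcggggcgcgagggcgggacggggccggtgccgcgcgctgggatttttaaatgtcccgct
Cdt1, chr8:122567765-122568014, plus strand: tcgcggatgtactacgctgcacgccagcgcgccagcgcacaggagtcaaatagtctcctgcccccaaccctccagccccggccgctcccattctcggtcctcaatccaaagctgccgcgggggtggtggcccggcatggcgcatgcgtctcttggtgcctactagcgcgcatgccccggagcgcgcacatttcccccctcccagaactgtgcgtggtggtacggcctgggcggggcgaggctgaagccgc
Mcm3, chr1:20820313-20820562, minus strand: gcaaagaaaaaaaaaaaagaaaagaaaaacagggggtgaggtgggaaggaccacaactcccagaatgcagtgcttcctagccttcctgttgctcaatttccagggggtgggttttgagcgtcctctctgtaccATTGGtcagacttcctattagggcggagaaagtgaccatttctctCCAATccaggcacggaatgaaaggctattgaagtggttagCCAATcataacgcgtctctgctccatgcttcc
Mcm6, chr1:128359706-128359955, minus strand: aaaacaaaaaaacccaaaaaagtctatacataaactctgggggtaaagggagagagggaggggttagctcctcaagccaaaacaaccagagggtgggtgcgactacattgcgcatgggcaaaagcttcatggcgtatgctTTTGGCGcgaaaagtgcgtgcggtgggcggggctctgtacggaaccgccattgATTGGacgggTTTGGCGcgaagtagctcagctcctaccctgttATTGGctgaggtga
Mcm2, chr6:88898781-88899030, minus strand: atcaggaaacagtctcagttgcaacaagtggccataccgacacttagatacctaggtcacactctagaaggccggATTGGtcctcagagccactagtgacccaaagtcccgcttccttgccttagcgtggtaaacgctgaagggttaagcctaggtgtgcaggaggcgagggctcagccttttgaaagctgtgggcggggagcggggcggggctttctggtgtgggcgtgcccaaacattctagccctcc
Mcm5, chr8:75109259-75109508, plus strand: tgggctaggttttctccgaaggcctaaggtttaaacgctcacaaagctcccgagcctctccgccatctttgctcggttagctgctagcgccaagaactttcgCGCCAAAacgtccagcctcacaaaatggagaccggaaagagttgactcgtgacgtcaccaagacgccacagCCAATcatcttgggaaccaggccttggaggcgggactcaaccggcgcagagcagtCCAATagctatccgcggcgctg
In these lines, counted from 1 at the 5′ end, the ALKBH5-FLAG summit fell on base 42 for Ccne1, base 26 for Cdt1 and base 236 for Mcm3. The IgG summit fell on base 74 for Cdt1. The Mcm6 summit lay beyond the stretch shown, inside the gene.

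An ALKBH5-FLAG peak was listed at 8 of the 10 genes, the exceptions being Mcm2 and Mcm5. Over all protein-coding genes 43.2% had an ALKBH5-FLAG peak inside or within 5 kb. Each of the 8 genes had exactly 1 peak, as did 74% of the genes with any. All 8 peaks lay within 1 kb of a gene end, so 8 of the 10 genes had a gene-end peak, against 31.1% of all protein-coding genes. Among the 9446 protein-coding genes with an ALKBH5-FLAG peak inside or within 5 kb, 6816 had one at a gene end. IgG peaks were listed at 2 of the 10 genes, Cdt1 and Mcm7. The IgG background was 12.6% of genes within 5 kb and 6.55% at a gene end, and 10.7% of genes had a peak of both libraries within 5 kb. When only peaks with a −log10 q of at least 5 were kept, ALKBH5-FLAG marked 7 of the 10 genes and IgG 1 at a gene end, against 19.3% and 1.71% of all genes. With only folds of at least 5 the counts were 8 and 2, against 25.1% and 3.56%. ALKBH5-FLAG peaks that shared no base with an IgG peak marked 6 of the 10 genes, against 26% of all genes, and 14.9% of all ALKBH5-FLAG peaks shared a base with one.

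Peak height is given by the pileup, the number of fragments stacked at the summit, and by the fold enrichment, the caller's ratio of pileup to local background. Both are the authors' values for each peak. Across the 8 genes the ALKBH5-FLAG pileup ran from 7 to 24 fragments with a median of 14, where all 6191 gene-end peaks of the library had a median of 10 (interquartile range 8 to 14). The fold ran from 5.67 to 8.45 with a median of 6.53, against a median of 6 over all gene-end peaks (5.04 to 7.14). The median width was 703.5 bp, against 464 bp.

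**Figure D1:**
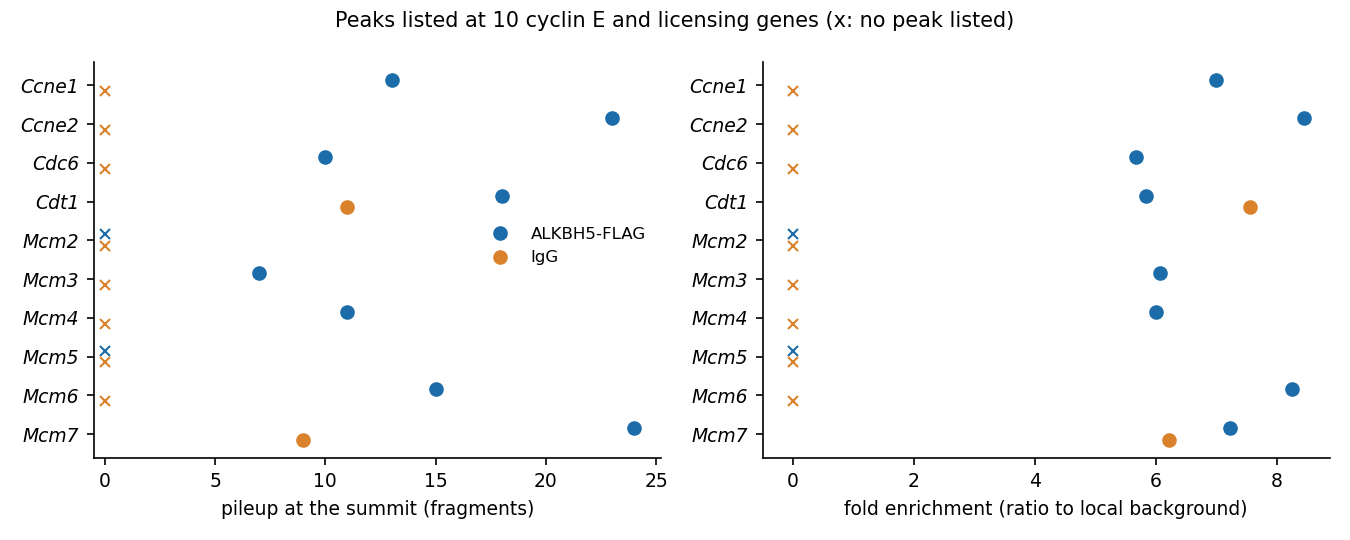
Pileup in fragments (left) and fold enrichment as a ratio (right) of the peak listed at each gene, for the ALKBH5-FLAG library and the IgG library. Points are single peaks without replicates, and crosses drawn at 0 mark genes with no listed peak. ALKBH5-FLAG pileups ran from 7 at Mcm3 to 24 at Mcm7, and IgG has points at Cdt1 and Mcm7 only.

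The cyclin E genes both carried an ALKBH5-FLAG peak about 1 kb wide and no IgG peak. At Ccne2 (chromosome 4, 11190433 to 11204779) the peak spanned 11190846 to 11191848. Its pileup was 23 and its fold 8.45, the highest fold of the 8. Its fold exceeded that of 90.9% of gene-end ALKBH5-FLAG peaks, and its pileup that of 93.7%. The summit lay 908 bp inside the annotated gene and 111 bp from an end of the lncRNA gene A630034I12Rik, which overlaps Ccne2 by 798 bp. At Ccne1 (chromosome 7, 38097984 to 38107490) the peak spanned 38107136 to 38108151, its pileup was 13 and its fold 7.0. The Ccne1 summit was 209 bp before the transcription start. The Ccne2 peak was thus the taller of the pair, but the 95% exact Poisson intervals of the pileups, 14.6 to 34.5 for Ccne2 and 6.92 to 22.2 for Ccne1, overlapped. These intervals cover counting error only, and a summit is the highest point of its peak by definition.

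The licensing factor genes differed in whether IgG marked them. Cdc6, the ATPase that helps to load MCM rings (chromosome 11, 98907709 to 98923942), had an ALKBH5-FLAG peak at 98907677 to 98908269. Its pileup was 10 and its fold 5.67, the lowest fold of the 8. The summit was 118 bp before the RefSeq start, which itself lies inside the annotated gene. Cdt1, the partner of MCM in loading (chromosome 8, 122568015 to 122573130), had an ALKBH5-FLAG peak at 122567673 to 122568360, where the pileup was 18 and the fold 5.83. The IgG library also had a Cdt1 peak, at 122567723 to 122567971, where the pileup was 11 and the fold 7.56. The ALKBH5-FLAG summit was 225 bp before the start and the IgG summit 177 bp before it, 48 bp apart.

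Among the MCM subunits, 4 of 6 genes carried an ALKBH5-FLAG peak. Mcm6 (chromosome 1, 128331575 to 128359705) had the highest fold of these, 8.25, at 128359292 to 128359841 with a pileup of 15. Its summit was 307 bp after the start. Mcm7 (chromosome 5, 138164583 to 138172111) had the tallest peak of the 8, at 138171023 to 138172019, whose pileup was 24 and fold 7.23. RefSeq gives Mcm7 starts at 138171883 and 138171266, and the ALKBH5-FLAG summit was 5 bp after the second of these in the direction of the gene. The IgG peak at Mcm7, at 138171129 to 138171351, had pileup 9 and fold 6.22, and its summit was 28 bp after the same start.

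Mcm3 (chromosome 1, 20802966 to 20820312) had the shortest and lowest peak of the 8. It spanned 20820251 to 20820450, 200 bp, the smallest width that the ALKBH5-FLAG list holds. Its pileup of 7 exceeded 15.1% of gene-end peaks, while its fold of 6.06 exceeded 51.3%. The summit was 15 bp before the start. Mcm4 (chromosome 16, 15623897 to 15637400) had a peak at 15637296 to 15638014, of pileup 11 and fold 6.00. That peak lay across a gap of 44 bp between Mcm4 and Prkdc, the catalytic subunit of the DNA-dependent protein kinase, so it counts for both genes. Likewise, Ap4m1, an adaptor complex subunit, overlaps Mcm7 by 91 bp, and its start was 760 bp from the Mcm7 summit.

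**Figure D2:**
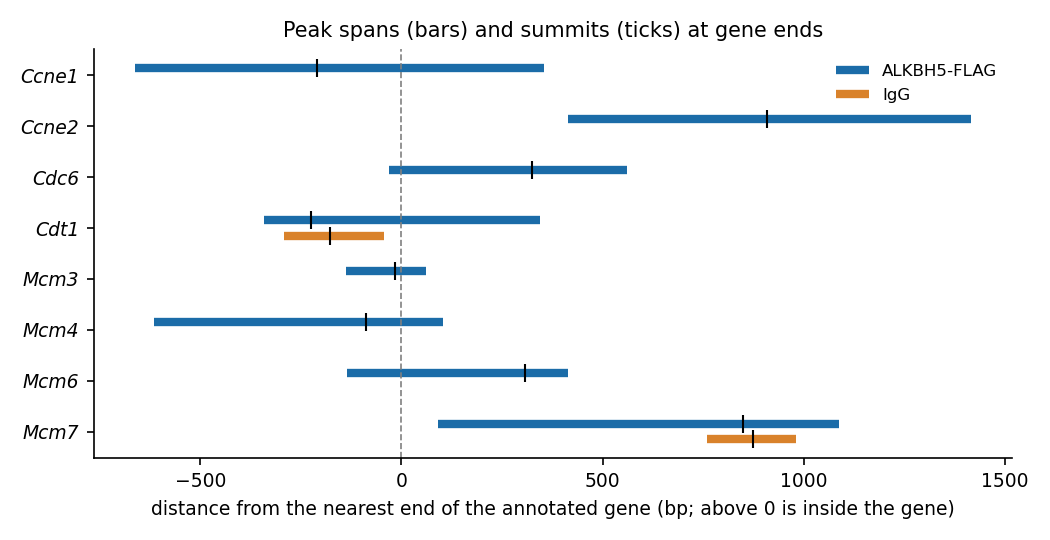
Span (bar) and summit (tick) of each listed peak relative to the nearest end of the annotated gene, in bp, with positive distances inside the gene, for ALKBH5-FLAG above IgG. Summits lie between 225 bp outside the gene at Cdt1 and 908 bp inside it at Ccne2.

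For all 6 genes with an ALKBH5-FLAG peak and a RefSeq start, the end marked was the 5′ end, with summits 5 to 307 bp from the nearest start. This is also where the library's gene-end peaks lie in general. Of 11080 protein-coding genes of at least 10000 bp with a start on a single strand, 36.1% had an ALKBH5-FLAG peak within 1 kb of the 5′ end and 1.89% within 1 kb of the 3′ end. Inside Mcm7 lie the hairpins of Mir25, Mir93 and Mir106b, a microRNA cluster. Neither library listed a peak over them, and the ALKBH5-FLAG peak ended 5205 bp from the nearest, Mir106b.

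Mcm2 and Mcm5 had no peak in either list. The nearest ALKBH5-FLAG peak to Mcm2 (chromosome 6, 88883474 to 88898780) was 13742 bp away, with a pileup of 4, and nearest to an end of Podxl2. The nearest to Mcm5 (chromosome 8, 75109468 to 75128439) was 15563 bp away, with a pileup of 12, and its summit was 34 bp from an end of Hmox1, the heme oxygenase gene. The nearest IgG peaks were 41248 bp from Mcm2 and 37304 bp from Mcm5. An unlisted site is one where the caller made no call, and read coverage there was not analysed here. For the genes with a peak, the next ALKBH5-FLAG peak beyond the 5 kb window was 8642 bp away at Mcm7, 44 bp from an end of Zfp113, and 8870 bp away at Cdc6. Each of the 10 peaks reached to within 1 kb of a gene end, and no other peak of either list lay inside the genes or within 5 kb of them.

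The fold and the pileup ranked the 8 peaks differently because the fold carries the local background. The background implied by the fold, with 1 added to each term of the ratio as MACS2 does, was 0.32 fragments at Mcm3, 0.94 at Cdc6 and Mcm6, and 1 at Ccne1 and Mcm4. It was 1.84 at Ccne2, 2.26 at Cdt1 and 2.46 at Mcm7. Cdt1, with a pileup of 18, therefore had a lower fold than Mcm3, with a pileup of 7.

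**Figure D3:**
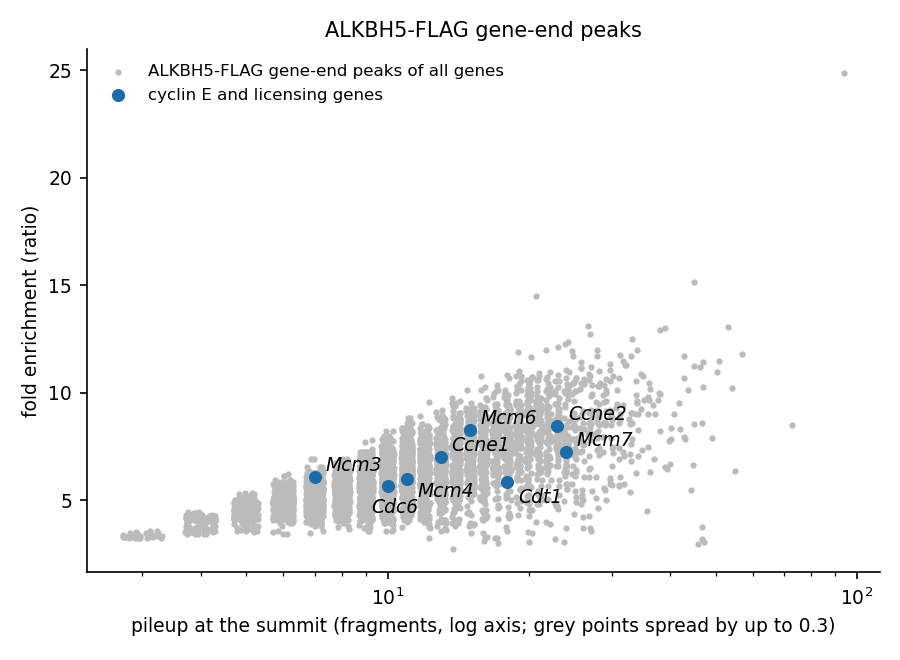
Pileup (fragments, log axis) against fold enrichment (ratio) for all 6191 ALKBH5-FLAG gene-end peaks in grey and for the 8 peaks at cyclin E and licensing genes in blue. The 8 peaks lie inside the cloud, with Ccne2 and Mcm7 toward its taller side and Mcm3 toward its lower side.

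Where both libraries had a peak, the IgG peak lay wholly inside the ALKBH5-FLAG peak, as it did in 69.1% of all 1811 peaks shared in a one-to-one manner. It covered 36.2% of the ALKBH5-FLAG peak at Cdt1 and 22.4% at Mcm7. The ALKBH5-FLAG pileup was 1.64 times the IgG pileup at Cdt1 and 2.67 times at Mcm7, where all such pairs had a median ratio of 2.4 (interquartile range 1.57 to 3.2). The ALKBH5-FLAG fold was below the IgG fold at Cdt1 and above it at Mcm7. Over all shared pairs it was above in 71.9%. Summits 48 and 23 bp apart compare with a median of 124 bp. The pileup intervals overlapped at Cdt1, 10.7 to 28.4 for ALKBH5-FLAG and 5.49 to 19.7 for IgG, and at Mcm7, 15.4 to 35.7 and 4.12 to 17.1. Overlap of such intervals is no test of a difference, and the pileups carry the unknown depths of the libraries. IgG had a gene-end peak at 2 of the 8 genes marked by ALKBH5-FLAG, and at 19.2% of all such genes. The libraries' depths are unknown, so the lack of an IgG peak at Ccne1, Ccne2, Cdc6, Mcm3, Mcm4 and Mcm6 cannot be told apart from a shallower IgG library. The lowest pileup listed for IgG was 2. The narrowest peak was 200 bp for ALKBH5-FLAG and 190 bp for IgG. Whether both lists were called with the same settings is not known, which limits comparisons of pileup, fold and width.

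The promoters without a peak lay within the range of those with one in base composition. In the promoter window, 250 bases before to 50 after the start, Mcm5 had 25 CG dinucleotides and a GC content of 57.7%, and Mcm2 had 16 and 57.3%. Mcm6, with a fold of 8.25, had 21 and 56.7%. Mcm3 had only 8 CG dinucleotides and 48.7% GC, and carried a peak. Ccne1 had the most, 41, with 76% GC, followed by Cdt1 with 32. Promoters were called CpG-rich at a GC content of at least 50% and an observed over expected CpG ratio of at least 0.6. By that measure the Mcm2 and Mcm5 windows were CpG-rich and the Mcm3 window was not.

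Over all 21263 promoter windows of protein-coding genes, 26.1% were touched by an ALKBH5-FLAG peak and 4.49% by an IgG peak. The shares were 48.2% and 8.47% in CpG-rich windows, and 7.97% and 1.21% in the others. The share with an ALKBH5-FLAG peak was 0.795% at 0 to 4 CG dinucleotides and 54.4% at 25 to 29. It was 44.5% at 35 or more. Of the 9 windows of the genes described here, 7 had an ALKBH5-FLAG peak. Both Mcm7 windows were touched by the same peak, so by gene the count was 6 of 8. Of the 8 CpG-rich windows, 6 had one, both Mcm7 windows among them, to be read against 48.2% of all CpG-rich windows.

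**Figure D4:**
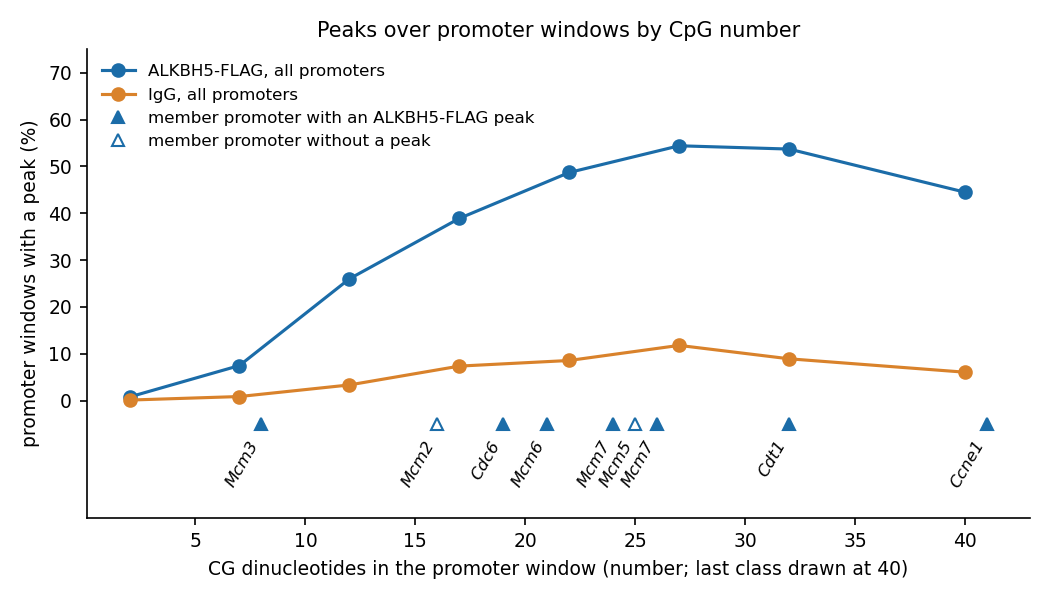
Percentage of all promoter windows with an ALKBH5-FLAG or IgG peak against the number of CG dinucleotides in the window, with triangles for the windows of the genes described here (filled with an ALKBH5-FLAG peak, open without). Mcm7 appears at both of its starts. The ALKBH5-FLAG share was 0.795% in the lowest class and 54.4% at 25 to 29, where the open triangle of Mcm5 and a filled one of Mcm7 stand.

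E2F letters were found before the start in 4 of the 9 windows, those of Cdc6, Mcm5, Mcm6 and the first start of Mcm7, and in 4.78% of all promoters and 7.57% of CpG-rich ones, the class of 8 of the 9 windows. They lay 110 and 47 bases before the start in Mcm6, 148 bases before it in Mcm5, 137 in Cdc6 and 164 in Mcm7. Mcm6, with a peak, and Mcm5, with none, thus both held E2F letters together with a pair of CCAAT boxes. CCAAT, the letters bound by NF-Y, stood in 6 of the 9 windows, in 35.4% of all and in 34.1% of CpG-rich ones. The Sp letters GGGCGG stood in 7 of 9, in 42.6% of all and in 71.6% of CpG-rich ones, so their share here was near that of CpG-rich promoters. The letters TTTGAA or TTCGAA, the CHR element of late cell cycle genes, stood in 2 of 9, in 15.9% of all and in 9.39% of CpG-rich ones. Each motif was searched on both strands in the 250 bases before the start. Mcm7 enters these window counts with both of its starts. Among CpG-rich windows, 8.45% of those with an ALKBH5-FLAG peak and 6.76% of those without held E2F letters. These matches describe letters only and say nothing of whether a factor was bound.

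Across 64 other genes of DNA replication and its control, 37 (57.8%) had an ALKBH5-FLAG gene-end peak and 8 had an IgG gene-end peak, against 31.1% and 6.55% of all protein-coding genes. With −log10 q held to at least 5 the counts were 21 and 4, against 19.3% and 1.71%, and with folds of at least 5 they were 31 and 5, against 25.1% and 3.56%. Their median fold was 5.95, where the 8 genes above had 6.53 and all gene-end peaks 6. In the origin recognition and loading group 5 of 8 genes had an ALKBH5-FLAG gene-end peak. Gmnn, which encodes the Cdt1 inhibitor geminin, had a fold of 6.45, Orc6 6.31 and Orc2 6.25. IgG also marked Orc6, with a fold of 6.73.

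Genes of helicase activation had an ALKBH5-FLAG gene-end peak in 9 of 14 cases. Gins2, a subunit of the GINS complex that joins the MCM ring, had a fold of 9.09, Mcm9, a relative of the MCM subunits, 6.98, and Gins1 6.41. IgG marked Gins2, with a fold of 6.39, and Mtbp, a partner of the firing factor Ticrr, with a fold of 4.44. Polymerase and fork genes counted 9 of 14. Pcna, the sliding clamp, had a fold of 8.70, Rpa3, a subunit of the single-strand binding complex, 8.43, and Pold1, the catalytic subunit of polymerase delta, 7.59. IgG marked Pcna, with a fold of 6.84, and Rpa1, with a fold of 3.99, where ALKBH5-FLAG had no gene-end peak.

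Kinases, cyclins and inhibitors had the lowest share with an ALKBH5-FLAG gene-end peak, 6 of 15 genes. The order differed for ALKBH5-FLAG peaks inside the gene or within 5 kb, which 43.2% of all protein-coding genes had (12.6% for IgG). There this group counted 11 of 15 for ALKBH5-FLAG and 7 of 15 for IgG. Helicase activation counted 9 of 14 and 2 of 14. Cdk4, the partner of the D cyclins, had an ALKBH5-FLAG fold of 9.04, Fbxw7, a ubiquitin ligase subunit that targets cyclin E, 8.64, and Cdk1, the mitotic kinase, 8.05. IgG marked Cdk4, Cdk1 and Ccna2, the cyclin A gene, with folds of 6.65, 5.89 and 4.28. Cdk2, the kinase that cyclin E activates, had an ALKBH5-FLAG gene-end peak with a fold of 6.36 and no IgG one. IgG did have 1 peak inside Cdk2 or within 5 kb of it. Cdkn1b, which encodes the cyclin E and Cdk2 inhibitor p27, had a fold of 6.09. The E2F and RB family counted 8 of 13 for ALKBH5-FLAG and 0 of 13 for IgG at gene ends, against 31.1% and 6.55% of all protein-coding genes. With so few genes, 0 of 13 is near the IgG share of all genes. Inside or within 5 kb, IgG had a peak at 1 of the 13, E2f5. Folds were 7.92 at E2f8, 7.05 at E2f5 and 6.00 at Tfdp1, the dimer partner of E2F. Differences in share between these groups were not tested.

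**Figure D5:**
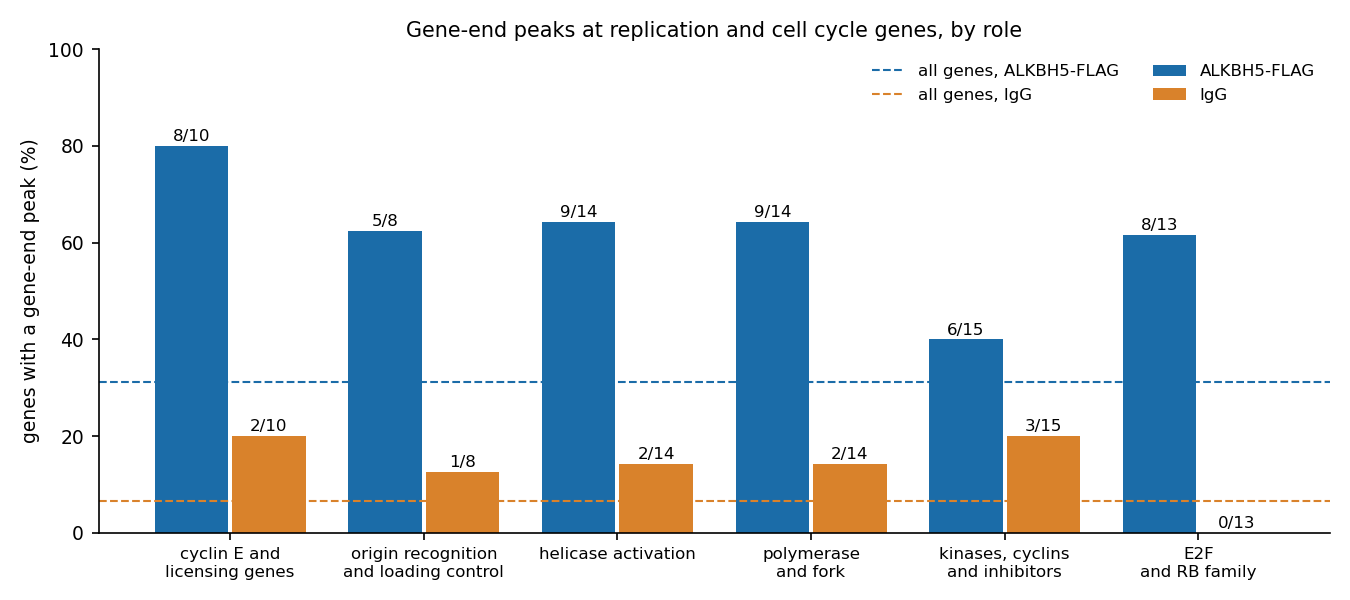
Percentage of genes with a gene-end peak in the ALKBH5-FLAG and IgG libraries, by role, with the number of genes above each bar and dashed lines at the shares of all protein-coding genes (31.1% and 6.55%). The genes described here had 8 of 10 for ALKBH5-FLAG and 2 of 10 for IgG, and the E2F and RB family 8 of 13 and 0 of 13.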

How the data were processed

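The 2 libraries from Hepa1-6 cells, ALKBH5-FLAG and IgG, were grouped by their titles. Per the submitters' processing notes, the tools included MACS2, Bowtie2 2.2.9, R 3.4.1 and SAMtools 1.3.1, with the build GRCm38 (mm10). The sources used here give no settings. Per the file headers, 1 table was deposited per library, as a peak list. The deposited pileup is a coverage signal in whole fragments, and the deposited fold is a ratio to local background. A pair of deposited columns without usable headers was read, from the order of MACS2 output, as the −log10 of the p-value and of the q-value.

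Python 3.11.15, pandas 2.3.3 and scipy 1.17.1 were used. Genes are the RefSeq protein-coding genes of GRCm38.p6 on chromosomes 1 to 19, X and Y. Starts and strands came from 21263 RefSeq promoter windows of 17492 of them. A peak was at a gene end when any base lay within 1 kb of it, and peaks were shared at 1 bp in common. The assignment of peaks to genes, not the authors' peak calling, was checked with 1 simulated peak at each of 200 genes, and 200 were assigned as placed. The genes and the replication list were chosen with earlier results of these data known. All 10 genes were named, with neighbours at their peaks, the 3 highest folds per role and every IgG gene-end peak in the replication list. Cdk2, Cdkn1b and the neighbours beyond 1 kb were named outside that rule, after their values were seen. Read totals were not stated, and the depth is unknown. There is no test between 1 library and 1 library.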

Additional observations from a re-analysis of the deposited data

How the results depend on the processing

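Of 37 alternatives over 8 counts, 30 stayed within 1.5 times the reported count and 7 did not. The 8 genes with an ALKBH5-FLAG peak were 8 under every other distance, 7 at a −log10 q of 5 or more (without Cdc6), 8 at a fold of 5 or more and 6 without peaks shared with IgG. Genes with an IgG peak numbered 1 at a −log10 q of 5 or more, for peaks within 5 kb and at a gene end, and 1 with a gene end at 500 bp. Of the ALKBH5-FLAG peaks here, 0 shared at least 50% of each peak with IgG, where 2 shared 1 bp, because the IgG peaks were narrower. With −log10 q held to 5 or more, the replication list counted 21 genes for ALKBH5-FLAG and 4 for IgG (over all genes the shares were 19.3% and 1.71%), and at a fold of 5 or more 5 for IgG. No paired analysis was possible because each group has 1 library. Unknown depth limits all statements on absent peaks.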
